A study of Homo sapiens with 15 samples.

Results

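The genes described here are the AP-1 subunits FOS, FOSB, FOSL1, FOSL2, JUN, JUNB and JUND, with the immediate early genes EGR1, IER3 and MYC. They were chosen by name, as every gene probe on the arrays whose printed or current gene symbol is one of these 10. This gave 16 probes in 34 spots, of 41000 gene probes in 43376 spots, and 10 of 30992 genes. All 10 genes had at least 1 probe well above background in both channels on all 15 arrays.

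MDA-MB-231 is a triple-negative breast cancer cell line. The treatments were directed at CtBP2, a corepressor that binds NADH: stable RNA interference (shCtBP2) and 24 h with the small molecules HIPP or P4, which are the oxime and the hydrazone of phenylpyruvate. Each treatment has 5 two-color arrays, which carried cRNA of treated cells in Cy5 and of control cells in Cy3, with no exchange of dyes. The shRNA was a vector clone transfected into this line, whether the stable cells were 1 cell clone is not given in the sources used here, and neither are the HIPP and P4 concentrations on the arrays. The labels call the control untreated MDA-MB-231 on every array, while the methods name a scrambled shRNA for the knockdown.

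AP-1 is a dimer of a JUN protein with another JUN protein, a FOS protein or a related bZIP factor such as those of the ATF family. FOS, FOSB, JUN, JUNB and EGR1 belong to the immediate early genes, which serum, growth factors or stress switch on within minutes without new protein synthesis, mainly through MAP kinases, and which fall again quickly. FOSL1 (Fra-1) and FOSL2 (Fra-2) follow more slowly and last longer, and JUND is present in resting cells. EGR1 is a zinc finger factor, IER3 a small stress-responsive regulator of survival, and MYC the bHLH factor that drives growth genes with MAX. AP-1 is known in this line for its part in invasion and in the mesenchymal state.

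Upstream sequence is shown for EGR1 and JUND, because EGR1 differed most in sign between the knockdown and HIPP and JUND was the one gene of the 10 to rise in all 3 treatments. Of the 10 genes, 7 have an entry in the RefSeq promoter table (GRCh38.p14), which holds 250 bases before and 50 after each start. The 250 bases before EGR1 lie at chr5:138465229-138465478 on the plus strand, and capitals mark 2 CArG boxes, the element that serum response factor binds, at −105 to −96 and −83 to −74. Those before JUND lie at chr19:18281623-18281872 on the minus strand, and capitals mark a cAMP response element, TGACGTCA, at −200 to −193. The stretch of FOSL2 lies at chr2:28392851-28392880 on the plus strand, and capitals mark an AP-1 site (TGACTCA or TGAGTCA) at +5 to +11.
EGR1: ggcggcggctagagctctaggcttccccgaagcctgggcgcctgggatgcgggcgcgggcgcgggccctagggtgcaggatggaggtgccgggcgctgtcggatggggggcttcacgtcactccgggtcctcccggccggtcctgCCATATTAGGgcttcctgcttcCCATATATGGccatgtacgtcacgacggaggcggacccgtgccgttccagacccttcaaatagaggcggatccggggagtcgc
JUND: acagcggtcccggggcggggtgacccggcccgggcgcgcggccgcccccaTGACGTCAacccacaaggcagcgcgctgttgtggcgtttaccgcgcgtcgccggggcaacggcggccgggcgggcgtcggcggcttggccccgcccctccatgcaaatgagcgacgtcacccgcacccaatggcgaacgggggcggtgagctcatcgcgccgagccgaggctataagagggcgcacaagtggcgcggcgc
FOSL2: tgccattgtagTGACTCAtctcgggcagag
Both strands were searched, over 35116 windows of 300 bases. A CArG box is in 1.29% of them and 2 or more in 0.0313%, the cAMP response element in 1.85%, and the AP-1 site in 4.95%. A TATA box (TATAAA) is in 11.5%, and FOS, JUNB and FOSB hold one between −33 and −25. An E-box (CACGTG), the MYC and MAX element, is in 7.26% and in none of the 7 windows.

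CTBP2, the target of the shRNA, had log2 ratios of −0.36, −0.35, −0.59, −0.44 and −0.29 in shCtBP2 cells, a mean of −0.41 ± 0.11 (SD, n = 5, limma adjusted p = 0.0595), or 75.4% of the control. It was lower on 5 of 5 arrays without passing the threshold. With HIPP it rose, with 0.32, 0.62, 0.13, 1.05 and 0.75 (mean 0.57 ± 0.36, limma adjusted p = 0.00256), and with P4 it had a mean of 0.17 ± 0.35 (limma adjusted p = 0.344), and the part of these levels in the differences between treatments was not tested. In the control channel, the mesenchymal genes VIM, CD44, AXL, ZEB1, SPARC and TGFBI were well above background on 15 arrays. Of 6 luminal or receptor genes, PGR and CDH1 were above it on 0 arrays, ESR1 on 11, and ERBB2, EPCAM and GATA3 on 15. There were 4 slides of up to 4 arrays, of which slide 1 carried P4 arrays 1 to 4, slide 2 P4 array 5 and HIPP arrays 1 to 3, slide 3 HIPP arrays 4 and 5 and shCtBP2 arrays 1 and 2, and slide 4 the other shCtBP2 arrays. Slide 1 was scanned on another day than the other 3, so that for P4 arrays 1 to 4 slide and scan day cannot be told apart.

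Among the genes that passed, JUND and JUN had the largest increases, while FOS was lower with both inhibitors and FOSL2 moved down in the knockdown and up with the inhibitors. Below, rose and fell mean a limma adjusted p under 0.05 over all 27582 genes tested in that treatment, and differentially expressed means that the fold change also reached the threshold the study set (1.5 for shCtBP2, 2.5 for HIPP, 1.8 for P4). In shCtBP2 cells 4 of 10 genes passed (3 higher, 1 lower), beside 13.5% of all genes tested (6.59% higher, 6.95% lower). With HIPP 6 of 10 passed (5 higher, 1 lower), beside 48.7% of all genes (24.9% higher, 23.9% lower). With P4 4 of the 9 tested passed (3 higher, 1 lower), beside 31.9% (17.1% higher, 14.8% lower). MYC is among those higher with each inhibitor, and did not pass without spots above background in neither channel. The differentially expressed genes were JUND in shCtBP2 cells and JUND and FOS with each inhibitor, where 6.57%, 7.05% and 8.46% of all genes met both criteria. With the brightest probe of each gene, JUNB (1.02) and FOSL2 (−0.76) met both criteria in shCtBP2 cells as well, which made 3. The median log2 ratio of the 10 genes was 0.39, 0.40 and 0.23 in shCtBP2, HIPP and P4, beside 0.038, 0.081 and 0.11 over all genes tested. In RNA from whole cultures, fewer cells that express a gene and less RNA per cell cannot be told apart.

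**Figure D1:**
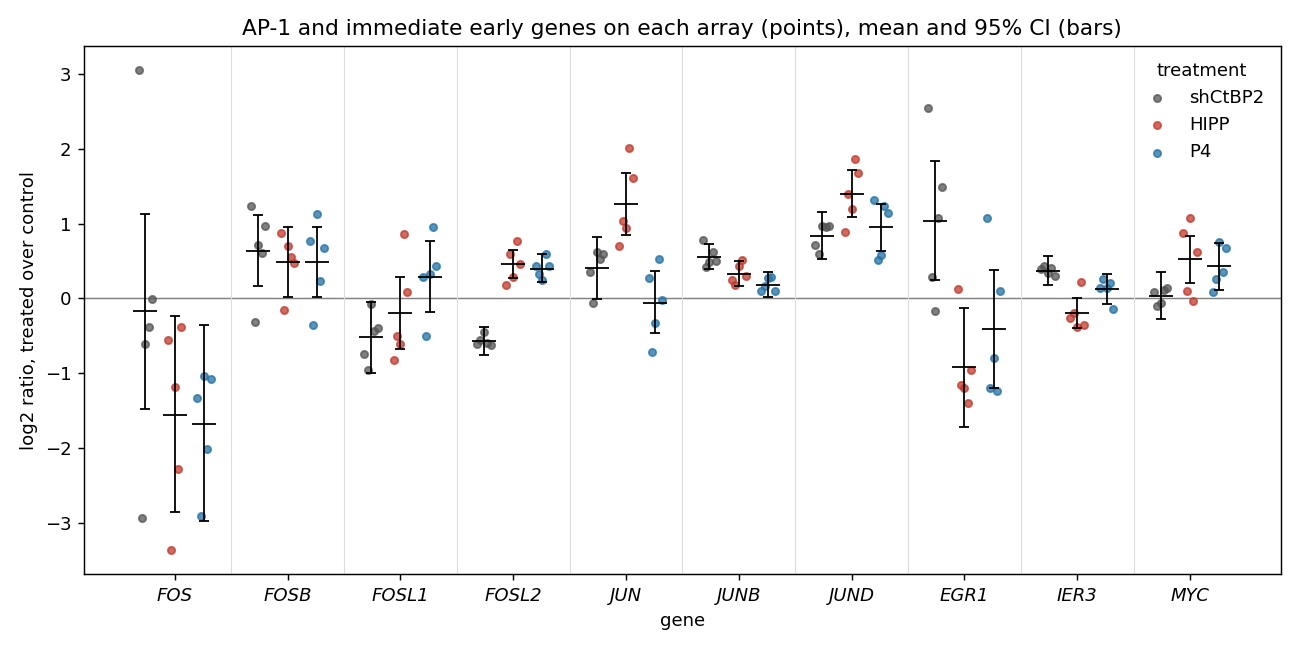
Log2 ratio of treated over control (vertical axis) for the 10 genes (horizontal axis) on each array, colored by treatment, with the mean and 95% confidence interval of the limma fit as black bars, n = 5 arrays per treatment. JUND lay above 0 on all 15 arrays, FOSL2 below 0 on the 5 shCtBP2 arrays and above it on the other 10, and FOS spread from −3.36 to 3.05.

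JUND, the JUN protein most abundant in resting cells, is read by 1 probe (chromosome 19, 18251756 to 18251814 in hg17). Its log2 ratios in shCtBP2 cells were 0.71, 0.60, 0.97, 0.95 and 0.97, a mean of 0.84 ± 0.17 (SD, n = 5, limma adjusted p = 0.00169). With HIPP they were 0.89, 1.40, 1.20, 1.86 and 1.67, a mean of 1.40 ± 0.38 (n = 5, limma adjusted p = 1.95e-06). The P4 values were 1.31, 0.51, 0.58, 1.24 and 1.14, a mean of 0.95 ± 0.38 (SD, n = 5, limma adjusted p = 0.000239). JUND rose in all 3 treatments, by 1.79, 2.64 and 1.94-fold, and the arrays of the treatments overlapped. With 1 probe and treated RNA in Cy5 on every array, a dye effect on this probe and a rise common to the treatments cannot be told apart. With HIPP the fold fell under 2.5 with background-subtracted signals, with mean signals and without array 4 (1.29 on the log2 scale), where it still rose. The shCtBP2 call was lost with slide as a fixed block (log2 ratio 0.38, limma adjusted p = 0.293) and with the methods' test over all genes (adjusted p = 0.11), where the means were 0.66 on slide 3 and 0.96 on slide 4. With HIPP the slide means were 1.16 and 1.76, and with P4 0.91 and 1.14.

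JUN, the founding AP-1 subunit, whose gene AP-1 itself activates, is read by 1 probe in 10 spots (chromosome 1, 58959750 to 58959809 in hg17). With HIPP its log2 ratios were 0.70, 1.03, 0.94, 2.01 and 1.61, a mean of 1.26 ± 0.54 (SD, n = 5, limma adjusted p = 7.82e-05). It rose 2.39-fold, just under the 2.5-fold threshold. With P4 the values were 0.27, −0.72, −0.33, 0.53 and −0.023, and in shCtBP2 cells 0.35, −0.061, 0.62, 0.53 and 0.60. Neither mean passed (−0.054 ± 0.49, limma adjusted p = 0.846, and 0.41 ± 0.28, limma adjusted p = 0.178). The HIPP arrays lay above all shCtBP2 arrays, and 21% of the genes tested in both had no overlap of these arrays. With mean signals without background correction JUN passed in shCtBP2 cells (0.63, limma adjusted p = 0.0279). The HIPP arrays on slide 3 averaged 1.81 and those on slide 2 averaged 0.89.

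JUNB, a JUN protein with weaker transactivation, is read by 2 probes on chromosome 19 that gave different values. The probe at 12763998 to 12764057 is dim, with a median control intensity of 70.7, and is shown because of that disagreement.
JUNB A_24_P241815: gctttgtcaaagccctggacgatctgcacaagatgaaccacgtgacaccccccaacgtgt
This probe averaged 0.10 ± 0.19, 0.069 ± 0.11 and −0.10 ± 0.11 (log2 ratio, SD, n = 5) in shCtBP2, HIPP and P4. The probe at 12765047 to 12765106, with a median control intensity of 2830, averaged 1.02 ± 0.17, 0.60 ± 0.24 and 0.47 ± 0.11 and was positive on all 15 arrays. Over both probes, JUNB rose in shCtBP2 cells (0.78, 0.42, 0.49, 0.62 and 0.50, mean 0.56 ± 0.14, limma adjusted p = 0.000353) and with HIPP (0.25, 0.18, 0.43, 0.52 and 0.30, mean 0.33 ± 0.14, limma adjusted p = 0.0027). The shCtBP2 call was lost with the methods' test over all genes (adjusted p = 0.0779), and the HIPP call with that test (adjusted p = 0.182), with mean signals (0.19, limma adjusted p = 0.149) and in a fit of the HIPP arrays alone (limma adjusted p = 0.0527). With P4 the values were 0.10, 0.17, 0.27, 0.29 and 0.10, and their mean of 0.18 ± 0.093 was not tested, since the gene varied too little among the signals of that treatment to pass the filter.

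FOS, the labile subunit that gives the classical FOS and JUN dimer, is read by 1 probe (chromosome 14, 74817967 to 74818026 in hg17). With HIPP its log2 ratios were −0.55, −3.36, −1.18, −2.27 and −0.38, a mean of −1.55 ± 1.26 (SD, n = 5, limma adjusted p = 0.0479). With P4 they were −1.33, −2.90, −1.03, −2.01 and −1.07, a mean of −1.67 ± 0.79 (SD, n = 5, limma adjusted p = 0.0493). FOS fell with both inhibitors, to 34.2% and 31.5% of the control. In shCtBP2 cells the values were 3.05, −2.93, −0.61, −0.38 and −0.004, with a mean of −0.17 ± 2.14 (SD, n = 5, limma adjusted p = 0.878). That SD compares with a median of 0.27 over all genes tested, and arrays 1 and 2 had opposite signs. Both inhibitor calls are at the edge of the threshold, and of 20 alternatives each they were lost in 10 for HIPP and 11 for P4. With normexp and loess the HIPP mean was −0.61 (limma adjusted p = 0.205), and with slide as a fixed block the P4 mean was −1.17 (limma adjusted p = 0.579). Both were lost without the interquartile range filter (limma adjusted p = 0.0511 and 0.0521) and without replicate 2 (−1.09, limma adjusted p = 0.185, and −1.36, limma adjusted p = 0.138). For P4 the call was lost without any 1 of the 5 arrays (limma adjusted p from 0.0635 to 0.138), and for HIPP also without array 3 (limma adjusted p = 0.0734) or array 4 (limma adjusted p = 0.132).

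The control channel of FOS varied with the replicate number. On the log2 scale relative to the 75th percentile of the array's channel, control FOS averaged −2.73, 0.13, −2.09, −1.44 and −2.27 on the arrays numbered 1 to 5 in the 3 treatments. The 3 arrays with the same number differed by 0.29 at most, while the numbers differed by 2.86, or 7.26-fold. Of 18675 genes well above background in all control channels, 1 had a wider range between numbers, and the median gene had 0.35 between numbers and 0.35 within them. EGR1 had control values of 0.47, 2.09, 2.00, 2.77 and 1.90, a range of 2.30 or 4.93-fold, with 0.41 at most within a number. Only 5 genes had a wider range. The labels do not say whether the same-numbered arrays of the 3 treatments carried 1 control RNA, shCtBP2 arrays included, and for these genes their control values were alike. Treated FOS lay between −3.76 and −2.72 with HIPP and between −4.08 and −2.82 with P4, against −2.78 to 0.21 in the control channels. In shCtBP2 cells treated FOS was 0.27 on array 1 and −2.84 to −1.65 on the other 4.

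**Figure D2:**
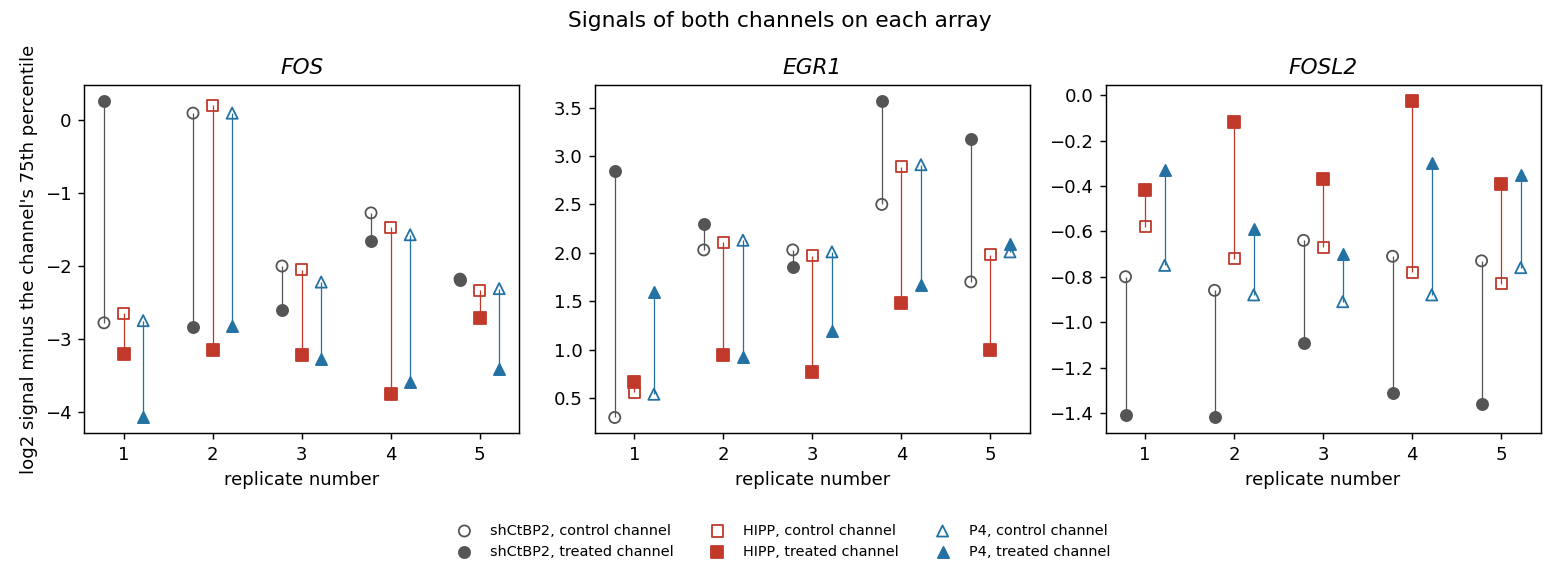
Log2 signal relative to the 75th percentile of the array's channel (vertical axis) for FOS, EGR1 and FOSL2 by replicate number (horizontal axis), with open symbols for the control channel, filled ones for the treated channel, a line joining both channels of an array, and a vertical scale for each gene. Control FOS averaged 0.13 on the arrays numbered 2 and −2.73 on those numbered 1, whichever the treatment, while control FOSL2 stayed between −0.91 and −0.58.

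EGR1, which growth factors switch on through serum response factor and its partners, is read by 1 probe (chromosome 5, 137832790 to 137832849 in hg17). In shCtBP2 cells its log2 ratios were 2.54, 0.28, −0.17, 1.08 and 1.49, a mean of 1.04 ± 1.06 (SD, n = 5, limma adjusted p = 0.0764). With HIPP they were 0.12, −1.16, −1.20, −1.40 and −0.96, a mean of −0.92 ± 0.60 (SD, n = 5, limma adjusted p = 0.052). With P4 they were 1.07, −1.19, −0.79, −1.23 and 0.10, a mean of −0.41 ± 0.98 (SD, n = 5, limma adjusted p = 0.408). No treatment passed, although shCtBP2 did without array 3 (1.35, limma adjusted p = 0.0427) and HIPP without array 1 (−1.18, limma adjusted p = 0.0255), and on every replicate number the shCtBP2 ratio was above the HIPP ratio. Leaving out 1 array gave 0.67 to 1.35 in shCtBP2 cells (limma adjusted p up to 0.298). With HIPP it gave −1.18 to −0.80 (limma adjusted p up to 0.143), and with P4 −0.78 to −0.20 (limma adjusted p up to 0.746). With replicate number as a block, shCtBP2 (limma adjusted p = 0.00308) and HIPP (limma adjusted p = 0.00118) passed. That block takes the spread between numbers out of the error, so these p-values against the control do not measure it. HIPP passed also with background-subtracted signals (limma adjusted p = 0.0309), without spots above background in neither channel (0.0421), with slide as a random block (0.0432) and in a fit of its arrays alone (0.0171). Array 1 had the highest ratio of each treatment and the lowest control signal. In the treated channel alone, EGR1 lay between 0.67 and 1.48 with HIPP, between 0.92 and 2.09 with P4 and between 1.85 and 3.57 in shCtBP2 cells. The HIPP and shCtBP2 levels did not overlap, which held for 23.4% of the genes tested in both.

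FOSL2 (Fra-2), the FOS relative that lacks a strong activation domain, is read by 3 probes on chromosome 2 between 28546798 and 28548885 in hg17. The probe with the lowest position is shown because all 3 gave the same direction in each treatment.
FOSL2 A_23_P345581: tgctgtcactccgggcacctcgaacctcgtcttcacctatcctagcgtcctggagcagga
In shCtBP2 cells the gene's log2 ratios were −0.61, −0.55, −0.45, −0.60 and −0.62, a mean of −0.57 ± 0.071 (SD, n = 5, limma adjusted p = 0.000857). With HIPP they were 0.18, 0.60, 0.29, 0.77 and 0.46, a mean of 0.46 ± 0.24 (n = 5, limma adjusted p = 0.000598). The P4 values were 0.43, 0.32, 0.25, 0.60 and 0.43, a mean of 0.40 ± 0.13 (SD, n = 5, limma adjusted p = 0.0033). Averaged over its probes, FOSL2 fell 1.48-fold in the knockdown and rose 1.37 and 1.32-fold with HIPP and P4. In each case it was below the fold threshold and in 1 direction on 5 of 5 arrays. These calls were lost with mean signals without background correction (−0.38, 0.19 and 0.43, limma adjusted p = 0.176, 0.373 and 0.0531). With the methods' test over all genes those for HIPP (adjusted p = 0.0855) and P4 (adjusted p = 0.292) were lost, and with slide as a fixed block that for P4 (0.56, limma adjusted p = 0.0691). The probe means ran from −0.76 to −0.43 in shCtBP2 cells, from 0.45 to 0.48 with HIPP and from 0.36 to 0.47 with P4. The −0.76 belonged to the brightest probe and was past the 1.5-fold threshold. Control FOSL2 varied by 0.33 over the 15 arrays. The values were −0.58 and −0.56 on the shCtBP2 slides, 0.36 and 0.62 on those of HIPP and 0.40 and 0.43 on those of P4.

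FOSL1 (Fra-1), the FOS relative prominent in invasive breast cancer lines, is read by 2 probes on chromosome 11 at 65416674 to 65416733 and 65417282 to 65417341. In shCtBP2 cells its log2 ratios were −0.74, −0.95, −0.073, −0.43 and −0.39, with a mean of −0.52 ± 0.34 (SD, n = 5, limma adjusted p = 0.139). With HIPP the values were −0.82, −0.50, −0.61, 0.86 and 0.08, and with P4 0.28, −0.50, 0.32, 0.95 and 0.43. The means were −0.20 ± 0.68 with HIPP (limma adjusted p = 0.477) and 0.29 ± 0.52 with P4 (limma adjusted p = 0.316). Leaving out 1 array gave −0.46 to −0.042 with HIPP and 0.13 to 0.49 with P4. The knockdown arrays were all below 0, and each inhibitor had arrays on both sides. FOSL1 passed in shCtBP2 cells with slide as a fixed block (−1.31, limma adjusted p = 0.0251), in a fit of those arrays alone (limma adjusted p = 0.0447) and with replicate number as a block (limma adjusted p = 0.0486). With HIPP it passed with mean signals (−0.39, limma adjusted p = 0.0229). On slide 2 the HIPP arrays averaged −0.65 and on slide 3 they averaged 0.47. FOSB, which forms stable AP-1 dimers and was dim here (median control intensity 68.6), had means of 0.64 ± 0.59, 0.49 ± 0.39 and 0.49 ± 0.57 in shCtBP2, HIPP and P4 (SD, n = 5, limma adjusted p = 0.0671, 0.0742 and 0.0997). The values were 1.24, −0.31, 0.71, 0.61 and 0.97 in shCtBP2 cells, 0.88, −0.15, 0.70, 0.55 and 0.48 with HIPP, and 0.77, −0.35, 1.13, 0.23 and 0.67 with P4. In each treatment 4 arrays were above 0 and array 2 was below it, at −0.31, −0.15 and −0.35. Without array 2 FOSB passed in each (0.88, 0.65 and 0.70, limma adjusted p = 0.0207, 0.0377 and 0.0296), as it did with replicate number as a block (limma adjusted p = 0.00285, 0.00241 and 0.0048).

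IER3 is read by 1 bright probe (chromosome 6, 30819291 to 30819350 in hg17, median control intensity 19500). In shCtBP2 cells its log2 ratios were 0.39, 0.43, 0.34, 0.41 and 0.30, and it rose by a mean of 0.37 ± 0.054 (SD, n = 5, limma adjusted p = 0.0142). This rise was lost without array 2 (0.36, limma adjusted p = 0.0536) or array 4 (0.36, limma adjusted p = 0.0525), with slide as a fixed block (0.37, limma adjusted p = 0.14) and with mean signals (0.65, limma adjusted p = 0.104). With HIPP the values were −0.26, −0.19, −0.38, 0.22 and −0.35 (mean −0.19 ± 0.24, limma adjusted p = 0.0886, or −0.30 and 0.00845 without array 4) and with P4 0.14, 0.26, 0.14, 0.21 and −0.14 (mean 0.12 ± 0.15, limma adjusted p = 0.311). IER3 fell with HIPP with normexp and loess (−0.24, limma adjusted p = 0.0194) and with background-subtracted signals (−0.34, limma adjusted p = 0.00536). The knockdown arrays lay above all arrays of both inhibitors, where 21% of genes had no overlap against HIPP and 13% against P4.

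MYC is read by 3 probes on chromosome 8 between 128816997 and 128822509, and its result depends on which is read. Averaged over probes, shCtBP2 cells had a mean of 0.034 ± 0.11 (log2 scale, 0.081, −0.10, −0.054, 0.11 and 0.14, limma adjusted p = 0.901), HIPP 0.53 ± 0.48 (0.88, 0.10, 1.07, −0.036 and 0.62, limma adjusted p = 0.0078) and P4 0.43 ± 0.29 (0.08, 0.26, 0.76, 0.35 and 0.67, limma adjusted p = 0.0373). By this average MYC rose with both inhibitors. The probe with the largest ratios, with means of 1.38 with HIPP and 0.83 with P4, was well above background on 0 of the 10 inhibitor arrays, at a median control intensity of 3.36. The brightest probe, with 10 spots and a median control intensity of 9550, averaged −0.083 ± 0.69 with HIPP (limma adjusted p = 0.784) and 0.10 ± 0.61 with P4 (limma adjusted p = 0.764). The last probe averaged 0.28 ± 0.16 and 0.35 ± 0.11 and was positive on 10 of 10 inhibitor arrays. Without spots above background in neither channel, neither inhibitor passed (0.10, limma adjusted p = 0.451, and 0.22, limma adjusted p = 0.105). Of 19 alternatives each, 8 ended the HIPP call and 13 the P4 call, among them normexp and loess (0.052 and 0.12) and background-subtracted signals (0.23 and 0.31). The P4 call was lost also without array 2, 3, 4 or 5 (limma adjusted p from 0.0508 to 0.129).

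**Figure D3:**
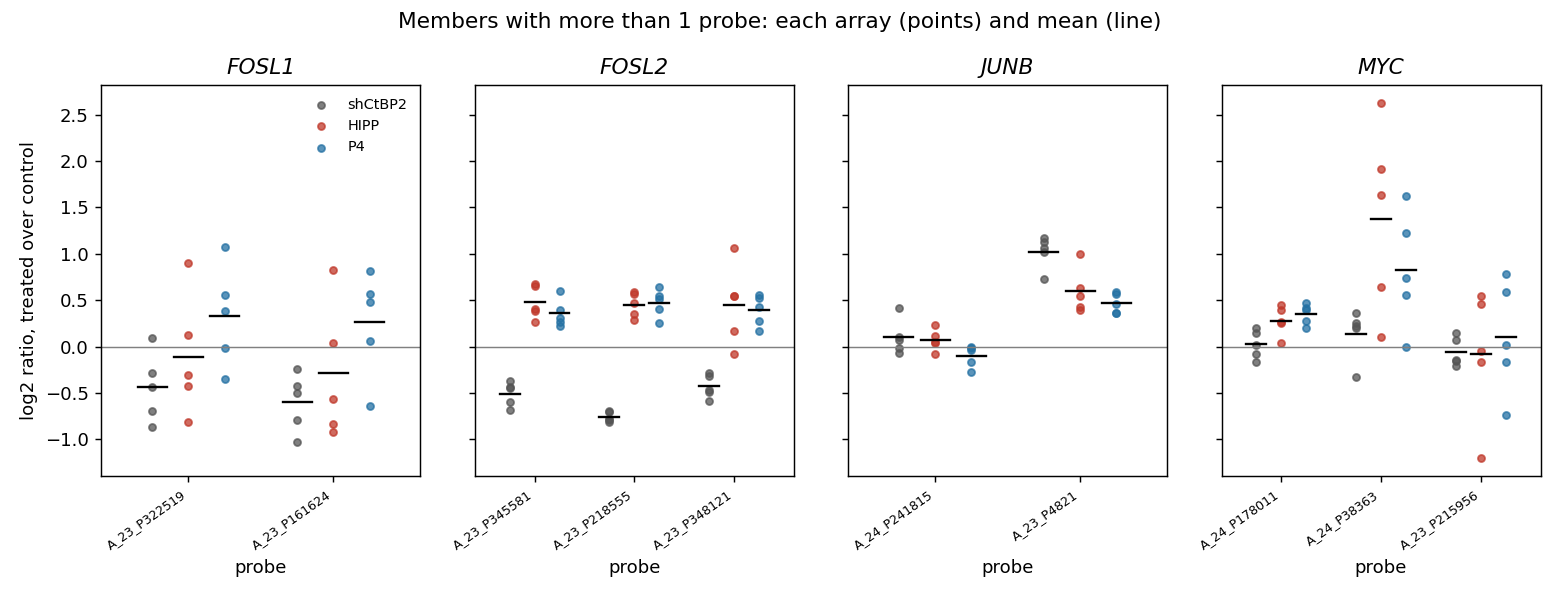
Log2 ratio of treated over control (vertical axis) for each probe (horizontal axis) of the 4 genes with more than 1 probe, with points for arrays colored by treatment and a black line for the mean, n = 5 arrays per treatment. The FOSL2 probes gave the same direction, the 2 JUNB probes averaged 0.10 and 1.02 in shCtBP2 cells, and the MYC probe with a HIPP mean of 1.38 was not well above background on any inhibitor array.

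The inhibitors and the shRNA were compared through the difference of the mean log2 ratios in the same fit. With HIPP, 4 of 10 genes differed from shCtBP2, beside 26.3% of the 24964 genes tested in both. FOSL2 was higher by 1.03 (95% CI 0.76 to 1.29, limma adjusted p = 3.02e-05) and JUN by 0.85 (0.27 to 1.43, limma adjusted p = 0.031). EGR1 was lower by 1.96 (−3.08 to −0.85, limma adjusted p = 0.0117) and IER3 by 0.57 (−0.84 to −0.29, limma adjusted p = 0.00421). The arrays did not overlap for FOSL2, JUN and IER3, beside 21% of genes. On slide 3, which held both treatments, the differences were 1.20 for FOSL2, 1.66 for JUN, −2.59 for EGR1 and −0.47 for IER3. With slide as a fixed block the calls for EGR1 (−2.59, limma adjusted p = 0.053) and IER3 (−0.47, limma adjusted p = 0.0989) were lost, and FOSL1 (1.32, limma adjusted p = 0.0294) and JUND (1.11, limma adjusted p = 0.017) passed, at the differences they had on slide 3. With mean signals without background correction the calls for FOSL2 (0.57, limma adjusted p = 0.0618) and JUN (0.36, limma adjusted p = 0.234) were lost. The JUN call was lost also without shCtBP2 array 1 (0.84, limma adjusted p = 0.0597), shCtBP2 array 2 (0.73, limma adjusted p = 0.0815), HIPP array 4 (0.66, limma adjusted p = 0.0776) or HIPP array 5 (0.76, limma adjusted p = 0.0799). JUND was 0.56 higher with HIPP (0.12 to 1.00, limma adjusted p = 0.056) and passed in 7 of 23 alternatives. Among these were leaving out HIPP array 1 (0.69, limma adjusted p = 0.0186), normexp and loess (limma adjusted p = 0.0471) and background-subtracted signals (limma adjusted p = 0.0319). MYC was 0.49 higher (0.051 to 0.93, limma adjusted p = 0.0953) and passed without HIPP array 4 (0.63, limma adjusted p = 0.0278). Its brightest probe gave −0.023 and mean signals gave −0.064. The intervals were −0.47 to 0.01 for JUNB, −3.22 to 0.47 for FOS, −0.81 to 0.52 for FOSB and −0.35 to 0.99 for FOSL1. JUNB (−0.23, limma adjusted p = 0.154) passed with normexp and loess (limma adjusted p = 0.0345), mean signals (−0.40, limma adjusted p = 0.0486) and its brightest probe (−0.42, limma adjusted p = 0.0314).

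With P4, FOSL2 alone of the 9 genes tested differed from shCtBP2, beside 12.1% of 24997 genes, at 0.97 higher (95% CI 0.70 to 1.24, limma adjusted p = 2e-04). This call was lost with slide as a fixed block (1.27, limma adjusted p = 0.0547). EGR1 was 1.45 lower (−2.57 to −0.33, limma adjusted p = 0.0872) and FOSL1 0.81 higher (0.14 to 1.49, limma adjusted p = 0.112). The replicate numbers of these 2 treatments deviated together, and with replicate number as a block both passed, EGR1 at limma adjusted p = 0.00348 and FOSL1 at 0.036, for 3 genes in all. EGR1 passed also without P4 array 1 (−1.82, limma adjusted p = 0.0273) or shCtBP2 array 3 (−1.76, limma adjusted p = 0.0494). FOSL1 passed also without P4 array 2 (1.01, limma adjusted p = 0.0478) and with mean signals (0.73, limma adjusted p = 0.0323). The arrays did not overlap for FOSL2, JUNB and IER3, beside 13% of genes. IER3 differed by −0.25 (−0.53 to 0.024, limma adjusted p = 0.243), and JUNB by −0.38 (−0.62 to −0.14), which was not tested here and passed without the interquartile range filter (limma adjusted p = 0.0393). P4 and shCtBP2 shared no slide, so that slide and treatment cannot be told apart in this difference except through HIPP.

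**Figure D4:**
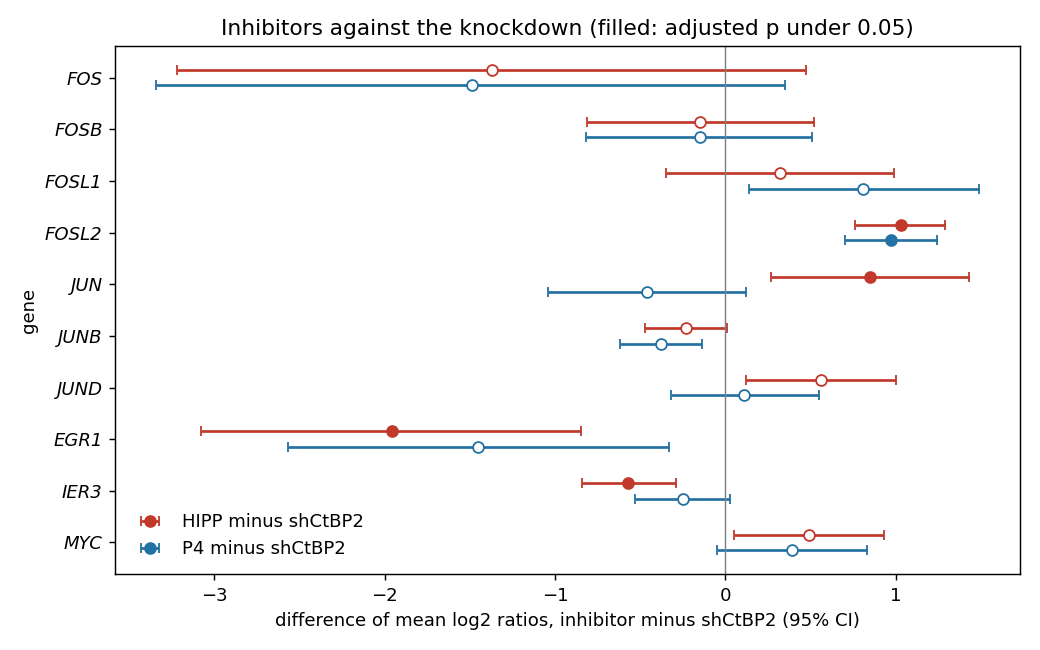
Difference of the mean log2 ratios, HIPP or P4 minus shCtBP2 (horizontal axis), with the 95% confidence interval of the limma fit for the 10 genes (vertical axis), n = 5 arrays per treatment. Filled symbols mark an adjusted p under 0.05, which FOSL2 reached for both inhibitors at 1.03 and 0.97, and EGR1, JUN and IER3 for HIPP.

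The concentrations of HIPP and P4 on the arrays are not given and those in the study's other experiments were unequal, so that the oxime and the hydrazone are set side by side without a test. FOSL2 (0.46 and 0.40), FOSB (0.49 and 0.49) and FOS (−1.55 and −1.67) had mean log2 ratios within their SDs of each other. JUN had 1.26 with HIPP and −0.054 with P4. JUND had 1.40 and 0.95, EGR1 −0.92 and −0.41, FOSL1 −0.20 and 0.29 and IER3 −0.19 and 0.12, all with overlapping arrays. JUNB had 0.33 and 0.18 and MYC 0.53 and 0.43, also with overlap.

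Of 14 bZIP genes whose products pair with JUN or FOS proteins or with their relatives, 5 passed in shCtBP2 cells (4 higher), 8 with HIPP (7 higher) and 6 with P4 (6 higher), of 12, 13 and 12 tested. Their median log2 ratios were 0.13, 0.54 and 0.21, beside 0.038, 0.081 and 0.11 over all genes tested, of which 13.5%, 48.7% and 31.9% passed. ATF3, a stress-induced repressor, rose with HIPP (2.20 ± 0.57) and P4 (1.07 ± 0.37) and had 0.26 ± 0.73 in shCtBP2 cells (limma adjusted p = 0.524). ATF4, the effector of the integrated stress response, rose in all 3 (0.40 ± 0.26, 1.60 ± 0.17 and 1.51 ± 0.25). JDP2, a repressor that pairs with JUN, rose in all 3 (0.61 ± 0.12, 1.32 ± 0.30 and 1.95 ± 0.35), as did BATF2 (0.78 ± 0.37, 1.47 ± 0.25 and 1.14 ± 0.26). The values are mean log2 ratios with SD, n = 5, and the order is shCtBP2, HIPP, P4 here and in the lists that follow.

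Of 22 other immediate early genes, 4 passed in shCtBP2 cells (2 higher), 15 with HIPP (8 higher) and 13 with P4 (8 higher), of 22, 21 and 20 tested, beside 13.5%, 48.7% and 31.9% of all genes. Their median log2 ratios were 0.045, 0.10 and 0.28. CCN2, a matricellular target of YAP and TGF-beta, fell with the inhibitors (−2.80 ± 0.47 and −1.71 ± 0.50) and had −0.45 ± 0.38 in the knockdown (limma adjusted p = 0.143). CCN1 likewise fell with both (−1.19 ± 0.30 and −1.50 ± 0.33), with 0.15 ± 0.33 in the knockdown (limma adjusted p = 0.53). EGR3 rose with HIPP (2.29 ± 1.65), where EGR1 had −0.92, and EGR2 rose with HIPP (1.25 ± 0.97) and P4 (1.03 ± 0.76). TRIB1, a pseudokinase, rose with both (1.08 ± 0.19 and 0.93 ± 0.46).

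Among 14 phosphatases and feedback inhibitors of the ERK pathway, 1 of 14 tested passed in shCtBP2 cells (lower), 6 of 9 tested with HIPP (5 lower) and 6 of 10 with P4 (4 lower), at median log2 ratios of −0.093, −0.0015 and 0.014, beside 13.5%, 48.7% and 31.9% of all genes tested. SPRY1, a feedback inhibitor of receptor signaling, fell with HIPP (−2.60 ± 0.45) and P4 (−1.28 ± 0.35). DUSP6, the ERK phosphatase that ERK itself induces, fell with HIPP (−1.33 ± 0.49) and P4 (−0.63 ± 0.38), and DUSP1 with P4 (−1.06 ± 0.50). In shCtBP2 cells these had −0.089 ± 0.20, −0.26 ± 0.33 and −0.094 ± 0.96 and did not pass (limma adjusted p = 0.766, 0.365 and 0.894). Of 20 MAP kinases and ternary complex factors, 3 of 15, 12 of 17 and 7 of 16 tested passed, of which 2, 10 and 6 were lower, at median log2 ratios of −0.089, −0.35 and −0.17, beside the same shares of all genes. MAP2K6, a p38 kinase kinase, fell with HIPP (−1.71 ± 0.21) and P4 (−1.14 ± 0.24), MAPK9 (JNK2) fell with both (−1.34 ± 0.27 and −0.61 ± 0.37), and ELK4, a partner of serum response factor, fell in all 3 (−0.76 ± 0.17, −0.52 ± 0.25 and −0.38 ± 0.40). RPS6KA2 rose with the inhibitors (0.79 ± 0.38 and 1.07 ± 0.39).

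Of 16 genes known as AP-1 targets, 5 of 12, 8 of 13 and 6 of 14 tested passed, of which 4, 6 and 5 were higher, at median log2 ratios of 0.047, 0.37 and 0.065. Of all genes tested 13.5%, 48.7% and 31.9% passed, here and for the next lists. PLAU (urokinase) fell with HIPP (−2.17 ± 0.44) and P4 (−0.66 ± 0.27). VEGFA rose in all 3 (0.39 ± 0.16, 2.07 ± 0.23 and 1.64 ± 0.19), as did SPP1, or osteopontin (1.00 ± 0.58, 1.21 ± 0.64 and 1.98 ± 0.67), and MMP3, or stromelysin (1.34 ± 0.99, 1.37 ± 1.01 and 1.03 ± 0.50). CD44, the hyaluronan receptor, rose with HIPP (1.40 ± 0.28) and P4 (0.45 ± 0.19). Of 11 genes of the MYC and MAX network, 2 of 8, 6 of 9 and 3 of 8 tested passed (1, 4 and 2 higher), at medians of −0.15, 0.14 and 0.074, and MXD1, which competes with MYC for MAX, rose with HIPP (2.21 ± 0.20) and P4 (1.02 ± 0.18). MXI1 of the same network rose with HIPP (0.91 ± 0.43) and P4 (0.98 ± 0.45). Of 16 MYC targets 4 of 8, 6 of 9 and 5 of 11 tested passed, of which 4, 5 and 4 were lower, at medians of −0.075, −0.03 and −0.093, and CAD, an enzyme of pyrimidine synthesis, fell in shCtBP2 cells (−0.64 ± 0.13) and with HIPP (−0.48 ± 0.34).

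The patterns most like those of FOS and JUND, the genes of the 10 with the largest mean absolute log2 ratio (1.54 and 1.07), were sought among 17457 named genes by the root mean square difference over the 15 arrays. For FOS these were IFIT3 (1.13), DUSP1 (1.17) and LYPD6B (1.21), which are not close matches. With HIPP their means were −1.52, −0.34 and −0.75, against −1.55 for FOS. For JUND the nearest were IL20RB, BSDC1 and GOLGA8B, each at 0.31.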

How the data were processed

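The 15 arrays compare treated with control MDA-MB-231 RNA in 2 colors, with 5 arrays each for shCtBP2, HIPP and P4. The authors scanned them with Agilent Feature Extraction (version 9.5) and deposited intensity values per spot, corrected for background and dye, among other scanner columns, and log10 ratios of Cy5 over Cy3 in a value table, centred at a median of 0, which served as an alternative. From the deposited intensities, log2 of Cy5 over Cy3 was taken per spot and 78 to 265 outlier spots an array were left out. Spots were averaged to probes and probes to genes, named through RefSeq accessions, symbols or unique synonyms. Genes measured on 3 of 5 arrays were kept, less the 11% with the lowest interquartile range over the 10 channel signals of a treatment. All arrays entered 1 limma (3.58.1) fit in R (4.3.3) with a mean per treatment, tested two-sided against 0 with Benjamini-Hochberg adjustment. The code was tested on simulated data. Other background corrections, normalizations, filters, probe rules and tests, slide or replicate blocks, and leaving out each array were tried as alternatives. A ratio against 0 can hold a dye effect.

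From 64.9 to 81% of gene spots were well above background in a channel, 0 were saturated, and the number of arrays limits precision. The labels call the arrays biological replicates. Replicate numbers 1 to 5 recur in each treatment. The main fit pairs no arrays, and the replicate block is an alternative to it. Replicate numbers of 2 treatments were said to deviate together where every same-numbered pair had deviations from the treatment means, over all genes, that correlated above 0.1. This held for shCtBP2 with P4 (0.138 to 0.352), where differently numbered pairs had −0.267 to 0.193 and so overlapped with them. It did not hold for HIPP with shCtBP2 (0.0691 to 0.306) or with P4 (−0.0276 to 0.471). The labels do not say what a number shares.

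All 10 genes are named with every array. Of other lists, counts are given, and by name up to 5 genes that met both criteria in a treatment. A gene that this rule names among the dimer partners is not reported here. The genes and lists were chosen with earlier results of these data known.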

Additional observations from a re-analysis of the deposited data

Results flagged for a closer look

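EGR1 in the first HIPP array stood apart from the other 4, with a log2 ratio of 0.12 against −0.96 in the nearest. Over 30 groups of 5 arrays (10 genes in 3 treatments) this was the single outlier by Dixon's test, and chance flags about 1 in 20 groups. Control EGR1 on the 3 arrays numbered 1 was between 0.30 and 0.56 on the log2 scale relative to the 75th percentile, below the other 12. Without that array the HIPP mean was −1.18 (limma adjusted p = 0.0255).

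The effect of HIPP differed from that of the knockdown, by the limma contrast, for EGR1 (−1.96), FOSL2 (1.03), IER3 (−0.57) and JUN (0.85). The effect of P4 differed from it for FOSL2 (0.97).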

How the results depend on the processing

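Of the values of the 10 genes under 19 to 23 alternatives each, 908 kept their direction and side of the threshold, 65 lost a call, 43 gained one and 21 reversed. JUN and JUND with HIPP and JUND with P4 kept an adjusted p under 0.05 in all of them. The cause of the changes below was not tested. The number of the 10 genes differentially expressed in shCtBP2 cells was 1, and became 2 with mean signals, without spots above background in neither channel and with slide as a fixed or random block, 3 with the brightest probe or the replicate block, 0 with the methods' test over all genes and 4 without a fold threshold. Leaving out 1 array gave 1 to 3. With HIPP it was 2, and became 1 with normexp and loess, with the value table, without the interquartile range filter and with the methods' test, 0 with background-subtracted or mean signals and 6 without a fold threshold. Leaving out 1 array gave 0 to 3. With P4 it was 2, and became 1 with background-subtracted or mean signals, the value table, no interquartile range filter, slide as a fixed block and the methods' test, and 4 without a fold threshold. Leaving out 1 array gave 1 to 1. The number that differed from shCtBP2 with HIPP was 4, and became 6 with normexp and loess, 3 with mean signals, 5 with background-subtracted signals, the brightest probe, the replicate block, only the arrays compared or without spots above background in neither channel, and 3 to 5 without 1 array. With P4 it was 1, and became 2 with mean signals or no interquartile range filter, 0 with slide as a fixed block and 3 with the replicate block, and 1 to 2 without 1 array.

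Directions reversed for FOS in shCtBP2 cells with normexp and loess (0.23) and without array 2 (0.52, range −0.98 to 0.52), for JUN there with slide fixed (−0.22), and for MYC there without spots above background in neither channel (−0.0068) and with the brightest probe (−0.059). With HIPP, FOSL1 reversed with slide fixed (0.0087) and MYC with mean signals (−0.037) and the brightest probe (−0.083). With P4, JUN reversed with mean signals (0.15), slide fixed (0.54) and without array 2 or 3 (0.11 and 0.015, range −0.2 to 0.11). Of HIPP minus shCtBP2, FOSB reversed with slide fixed (0.053) and without shCtBP2 array 1 (0.00064) or HIPP array 2 (0.012, range −0.39 to 0.012), FOSL1 with mean signals (−0.053), and MYC with mean signals (−0.064) and the brightest probe (−0.023). Of P4 minus shCtBP2, FOSB reversed with slide fixed (0.24) and without P4 array 2 (0.057, range −0.39 to 0.057), and JUN with slide fixed (0.75).

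With the replicate block, which takes out spread that same-numbered arrays share, FOSB passed in all 3 treatments (limma adjusted p = 0.00285, 0.00241 and 0.0048), EGR1 in shCtBP2 cells (0.00308) and with HIPP (0.00118), FOSL1 in shCtBP2 cells (0.0486) and JUND for HIPP minus shCtBP2 (0.0368). Beside these and EGR1 and FOSL1 for P4 minus shCtBP2, it changed no other call of the 10 genes. Its p-values against the control leave out the spread between replicate numbers and do not measure it. Over all genes, the 1813, 1944 and 2333 differentially expressed became 269, 280 and 584 with normexp and loess, 309, 570 and 661 with mean signals, and 3734, 13444 and 8800 without a fold threshold. The methods' test gave 969 for shCtBP2 and 891 for P4, and a fold of 1.5 gave 8976 for HIPP and 4831 for P4. The 6577 genes that differed for HIPP minus shCtBP2 became 4206 and 3673 with normexp and mean signals, and the 3027 for P4 became 764 with mean signals, 526 with slide fixed and 1999 without P4 array 5. The median log2 ratio of all genes was 0.038, 0.081 and 0.11, and −0.067, 0.024 and −0.039 with mean signals. Signal over background limits 1 probe of MYC.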
